A study of Mus musculus with 2 samples.

Results

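The replication-dependent histone genes were described in aortic macrophages of ApoE-/- mice. Members were the protein-coding genes whose name starts with Hist1h, Hist2h, Hist3h or Hist4h, and 67 of the 54532 genes in the table met this rule. The groups are labelled PDR and SKYD, after a pair of syndromes of traditional Chinese medicine modelled in dyslipidemic mice. All mice were male, ApoE-/- on C57BL/6J and 6 weeks old by the labels, and so lacked apolipoprotein E in both groups. PDR mice received a high-fat diet for 4 weeks and no drug. SKYD mice received propylthiouracil, a drug that lowers thyroid hormone, by gavage at 10 mg/kg per day for 4 weeks, and then 2 weeks of high-fat chow. Cells that carried F4/80 and CD11b were sorted from the aorta, and 5 mice gave the cells for each pool. Each pool made 1 library, so no difference has a replicate check, and syndrome, drug, length of diet and age at collection cannot be told apart.

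Replication-dependent histones package new DNA, and their genes are switched on as cells enter S phase. H2A, H2B, H3 and H4 build the nucleosome core, while H1 binds the DNA between nucleosomes. Their genes lie in clusters, carry almost no introns, and give mRNAs that end in a conserved stem-loop in place of a poly(A) tail. The stem-loop is bound by SLBP, which guides processing, translation and decay of the mRNA.

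The stem-loop was looked for in the annotated 3' UTR of each gene, since an RNA that lacks poly(A) may be caught differently by a library. A match was a 16-base run that begins with GG, pairs perfectly over 6 bases on each side, and has a 4-base loop of TTT followed by any base but G. It was found in 44 of the 67 members. Of all 20983 protein-coding genes with a 3' UTR long enough to hold it, 58 (0.276%) had a match, and these 58 include the 44 members. Another 15 members had no such UTR in the annotation, and 8 had a UTR with no match. The sites below show each form of the stem-loop that was found, with the stem-loop in capitals and flanks in lower case.
Hist1h2ao, chr13:21810893-21810918, plus strand: aaaaaGGCTCTTTTCAGAGCCatcca
Hist3h2ba, chr11:58949344-58949369, plus strand: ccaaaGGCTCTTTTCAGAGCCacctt
Hist1h1c, chr13:23739507-23739532, plus strand: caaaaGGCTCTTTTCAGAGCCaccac
Hist1h3e, chr13:23561898-23561923, minus strand: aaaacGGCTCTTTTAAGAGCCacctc
Hist2h2ac, chr3:96220413-96220438, minus strand: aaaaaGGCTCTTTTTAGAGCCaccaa
Hist1h4d, chr13:23581945-23581970, plus strand: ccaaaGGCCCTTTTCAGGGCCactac
Hist1h4i, chr13:22040961-22040986, minus strand: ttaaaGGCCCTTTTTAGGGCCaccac
Hist1h4j, chr13:21735432-21735457, plus strand: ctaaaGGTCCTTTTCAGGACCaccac
Positions are on GRCm38, and each line is the strand of the gene. The 16 bases of Hist1h2ao, Hist3h2ba and Hist1h1c were the most frequent form, with 26 of 44 members. The stem set the H4 genes apart: it began with GGCCC in 9 and GGTCC in 2 of their 11 stem-loops, and with GGCTC in the 4 of H1, 11 of H2A, 10 of H2B and 8 of H3. The annotated gene ran on for more than 100 bases past the stem-loop in 22 members, such as Hist1h4d with 770 bases, and stopped within 100 bases in the other 22, such as Hist1h2ao with 31.

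Promoters were read for 62 of the 67 members from RefSeq (GRCm38.p6), as windows of 300 bases around the start. The table had no match for Hist1h2bc, Hist1h3a, Hist1h3f, Hist2h4 and Hist2h2be. TATAAA on the strand of the gene was found in 30 of the 62 (48.4%), against 8.32% of all 32851 promoters. CCAAT on either strand was found in 53 (85.5%), against 37.4%. All matched promoters of H1, H2A, H2B and H3 held CCAAT, and 3 of the 12 of H4 did. The octamer ATTTGCAT on either strand was found in 7 of 18 H2A and 6 of 16 H2B promoters and in none of H1, H3 and H4, against 1.74% of all promoters. The 120 bases before the RefSeq start are shown for the most abundant matched gene of each type, with these motifs in capitals.
Hist1h1b, chr13:21780626-21780745, minus strand: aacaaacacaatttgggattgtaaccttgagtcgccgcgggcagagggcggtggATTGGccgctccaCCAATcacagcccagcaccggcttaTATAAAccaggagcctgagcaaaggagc
Hist1h2ao, chr13:21810247-21810366, plus strand: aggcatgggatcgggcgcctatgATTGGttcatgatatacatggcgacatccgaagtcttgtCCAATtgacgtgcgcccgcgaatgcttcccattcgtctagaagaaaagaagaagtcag
Hist3h2ba, chr11:58948791-58948910, plus strand: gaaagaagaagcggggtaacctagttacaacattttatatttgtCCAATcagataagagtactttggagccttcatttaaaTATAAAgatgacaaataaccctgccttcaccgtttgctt
Hist1h3i, chr13:21783398-21783517, minus strand: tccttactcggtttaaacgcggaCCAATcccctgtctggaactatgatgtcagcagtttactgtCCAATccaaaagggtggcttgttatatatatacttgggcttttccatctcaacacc
Hist1h4d, chr13:23581448-23581567, plus strand: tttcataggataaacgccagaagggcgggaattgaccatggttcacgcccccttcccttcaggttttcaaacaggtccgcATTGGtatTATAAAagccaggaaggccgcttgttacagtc
The stretch of Hist1h1b held CCAAT on both strands and TATAAA, and that of Hist1h2ao held CCAAT on both strands and no TATAAA. These stretches are not alike in position. That of Hist1h1b borders the gene, while that of Hist1h2ao ends at 21810366, well before the gene start at 21810465. The full 300-base window of Hist1h2ao held 3 CCAAT and 0 TATAAA. A match describes the letters and is no measurement of binding.

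The deposited values are FPKM, that is reads scaled to the length of the gene and to a size of the library. Multiplied by gene length, they were whole multiples of 1 step in each library, which gave back the reads on each gene. The PDR library held 23086889 reads on genes and the SKYD library 25427863. The sizes behind the FPKM were not these sums but 23487992 and 24993633, above the sum in PDR and below it in SKYD; how they were set was not tested. Where a pair of values is given, PDR comes first. Of the 67 members, 58 had at least 1 read and 9 were at 0 in both libraries. The lowest, median and highest FPKM of a member were 0, 1.67 and 952 for PDR and 0, 2.10 and 1270 for SKYD. Only 12 members reached an FPKM of 10 in both libraries, so most of the signal lay in a few genes.

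Reading these levels needs care, since many of the genes are close copies. Of the 67 members, 61 share at least 1 stretch of 100 bases, the length of a read, with the transcripts of another gene, and 44 share more than 25% of their stretches. Either strand was searched, and genes that overlap a member were not left out. The counts therefore mix overlaps with copies. Hist2h2bb, overlapped by Gm20628 and Gm42743, shared with 0 other members and 2 other genes. Hist3h2a, overlapped by Trim17 and Gm44313, also shared with 0 other members and 2 other genes. How reads with several places in the genome were counted is not given in the sources used here. The 5 members with every stretch shared, Hist2h2aa1, Hist2h2aa2, Hist2h3c1, Hist2h3b and Hist2h2bb, all had 0 reads. Whether sharing is the reason was not tested, and other members with over 90% shared did have reads. An annotated miRNA gene of 129 to 144 bases lies on the opposite strand inside 17 of the 18 H2A genes, and these miRNA genes had 0 reads in all. Whether strand was used in counting is not given either, and without it reads of a gene and of its antisense partner cannot be told apart. Library preparation also bears on these genes, as the selection of RNA, by poly(A) or otherwise, is not given in the sources used here.

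**Figure D1:**
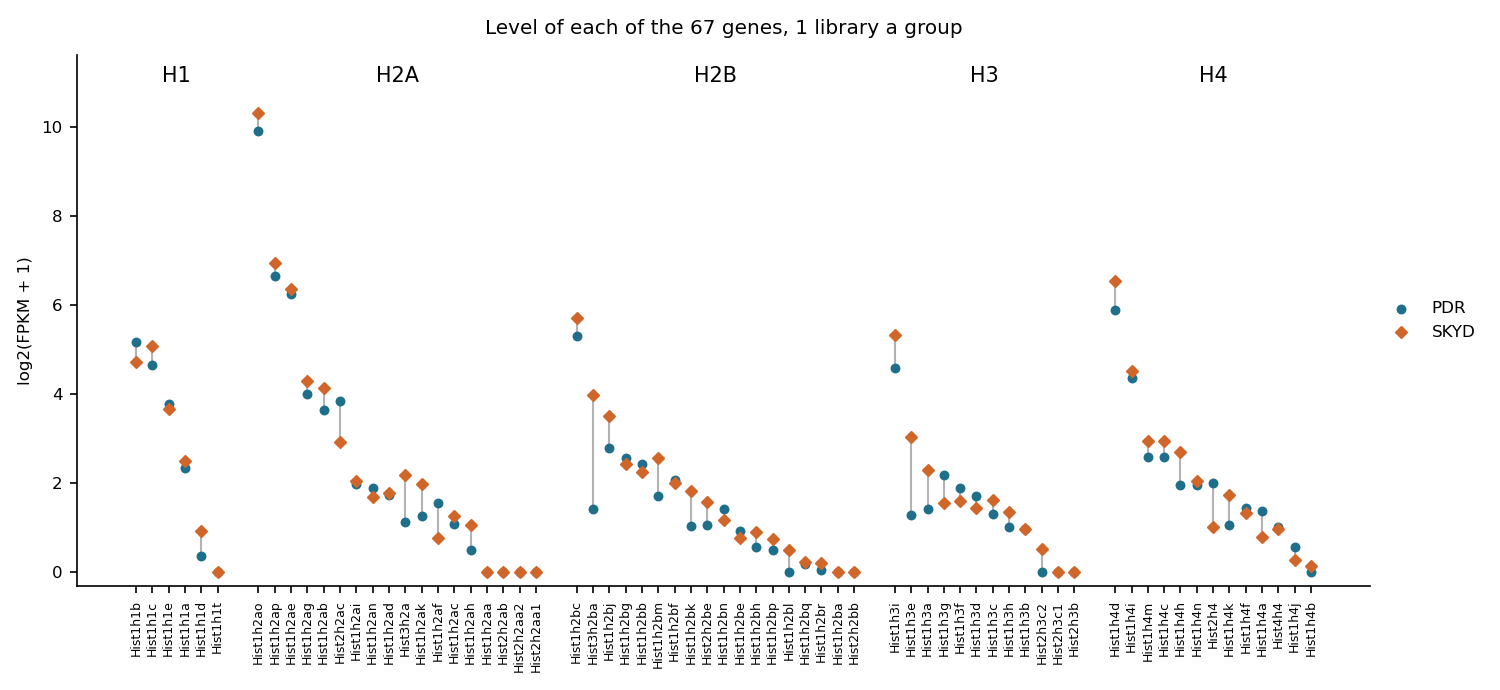
Level of each of the 67 genes as log2(FPKM + 1), by histone type and in order of mean FPKM, with circles for the PDR library and diamonds for the SKYD library, 1 library each. Hist1h2ao stood above all others in both, at FPKM 952 and 1270, and 9 genes were at 0 in both.

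Together the members had a summed FPKM of 1464 in PDR and 1912 in SKYD, which is 1.31-fold higher in SKYD. They took 0.0883% of reads in PDR (95% CI 0.0871 to 0.0895) and 0.111% in SKYD (95% CI 0.110 to 0.112). The log2 ratio of summed FPKM, PDR over SKYD, was -0.38, and that of summed reads was -0.38 (95% CI -0.41 to -0.36) over the sizes behind the FPKM. As a share of the reads on genes it was -0.33. These are exact intervals (Clopper-Pearson) and describe counting error only; how far mice of 1 group differ is not in them. Hist1h2ao alone gave 65.1% of the summed FPKM in PDR and 66.4% in SKYD, and without it the sums were 512 and 642. More cells in S phase and more histone mRNA per cell cannot be told apart in bulk RNA.

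Gene by gene, differences are given as log2(FPKM + 1), PDR minus SKYD, and were tested where the mean FPKM reached 1. This left 45 members, besides 13 of lower level and the 9 at 0. Of these, 3 passed the threshold of 2-fold, all higher in SKYD: Hist3h2ba, Hist1h3e and Hist3h2a. None was more than 2-fold higher in PDR. Over all 10399 tested genes, 14.3% were past 2-fold, with 7.38% higher in PDR and 6.91% higher in SKYD, so the 6.67% of members higher in SKYD was near the background. With 0.1 in place of 1 added to FPKM, 3 of the 45 passed towards PDR and 8 of the 45 towards SKYD, against 10.2% and 9.71% of all tested genes. How near the members were to the background thus depended on the value added. With 1 added, many differences below the threshold also leaned towards SKYD. The value was higher in SKYD for 30 of the 45 (66.7%), against 50.4% of all tested genes, and the median difference was -0.28 against -0.0035. The interval of the difference lay below 0 for 20 members and above 0 for 5, while it included 0 for the other 20. Intervals below 0 were thus 44.4% of members, against 37.7% of all tested genes, and intervals above 0 were 11.1%, against 36.8%.

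**Figure D2:**
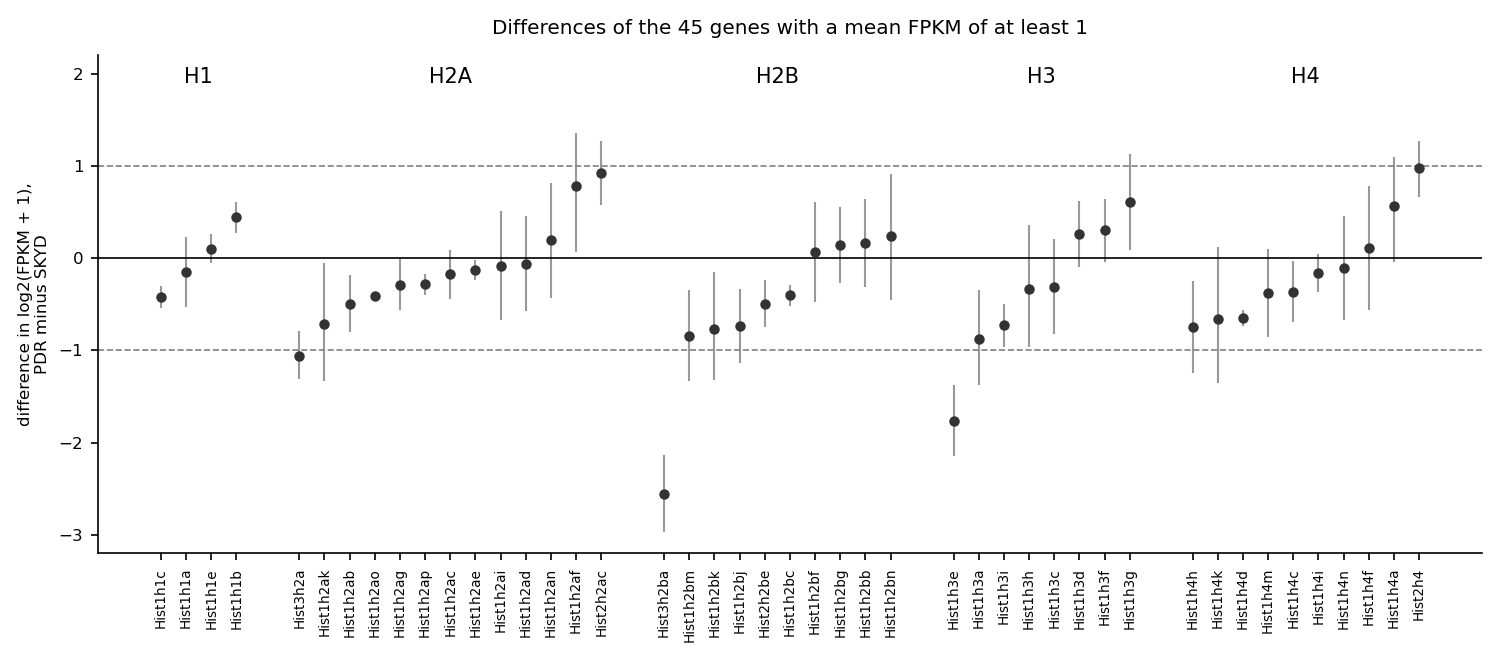
Difference in log2(FPKM + 1), PDR minus SKYD, for the 45 genes whose mean FPKM reached 1, by histone type. Bars are 95% counting intervals from 1 library a group, and dashed lines mark 2-fold; Hist3h2ba, Hist1h3e and Hist3h2a lie below the lower line.

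Linker histones were at about the same summed level in both libraries, with an FPKM of 76.3 in PDR and 75.6 in SKYD, and their genes went in both directions. Hist1h1b (ENSMUSG00000058773, chr13:21779883-21780625), which encodes H1.5, had an FPKM of 35.1 in PDR and 25.5 in SKYD, a difference of 0.44 (95% CI 0.27 to 0.61). Hist1h1c (ENSMUSG00000036181), which encodes H1.2, had 24.2 and 32.7, a difference of -0.42 (95% CI -0.54 to -0.30). Neither passed 2-fold, but the intervals of this pair do not overlap. Hist1h1e, the gene of H1.4, had 12.7 and 11.8, and its interval of -0.06 to 0.26 included 0. The sign for H1 as a type therefore depended on the measure, since its share of reads was 0.00952% in PDR and 0.0101% in SKYD, and its log2 ratio of summed reads was -0.14 (95% CI -0.22 to -0.05). Hist1h1d (H1.3) was spread over a gene model of 7425 bases and had 52 and 167 reads. Hist1h1t, the H1 of testis, had 0 reads in both libraries, which allows up to 3 reads each.

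Core histones all had a higher summed FPKM in SKYD. For H2A the sums were 1180 in PDR and 1532 in SKYD, for H2B 66.8 and 101, for H3 38.2 and 60.8, and for H4 102 and 142. With all genes of a type summed, the ratio of SKYD to PDR was lowest in H2A at 1.30-fold and highest in H3 at 1.59-fold. The log2 ratio of summed reads, PDR over SKYD, was -0.37 (95% CI -0.41 to -0.34) for H2A, -0.52 (95% CI -0.61 to -0.43) for H2B, -0.60 (95% CI -0.76 to -0.44) for H3 and -0.48 (95% CI -0.56 to -0.41) for H4. The direction of each of these 4 types was also kept without its most abundant gene, but the sizes and their order changed. The log2 ratio of summed FPKM was then -0.20 for H2A, -0.83 for H2B, -0.54 for H3 and -0.20 for H4. With all genes it was -0.38, -0.60, -0.67 and -0.48.

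**Figure D3:**
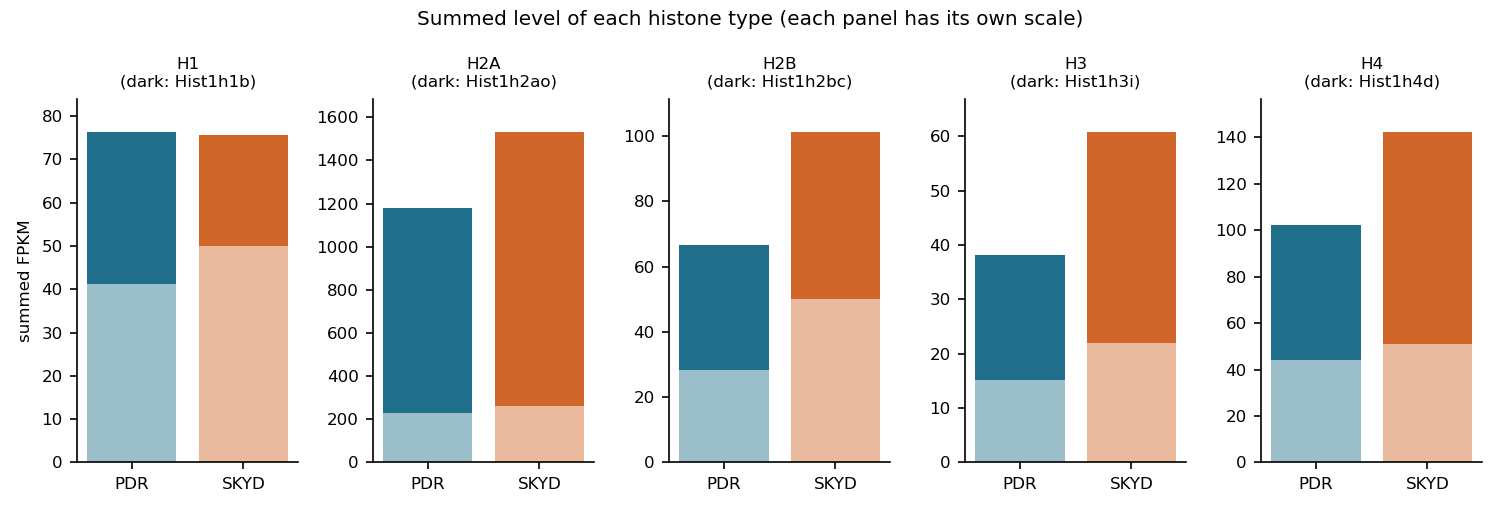
Summed FPKM of the genes of each histone type in the PDR and SKYD libraries, 1 library each, with the most abundant gene of the type in the dark part of each bar and a separate scale for each panel. The bars of H1 reach 76.3 and 75.6, and those of the core histones are higher in SKYD.

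Among H2A genes, Hist1h2ao (ENSMUSG00000094248, chr13:21810465-21810944) had 10738 reads in PDR and 15234 in SKYD. Its FPKM of 952 and 1270 ranked 77 and 57 among all genes, and the difference was -0.41 (95% CI -0.45 to -0.38). Of its 100-base stretches 92.7% also occur in other genes, so its reads may include those of near-identical copies. Hist1h2ap, with 92.2% of its stretches shared, had an FPKM of 99.8 and 122. Hist1h2ae, with 30.7% shared, had 74.3 and 81.1. These 3 leading genes were all higher in SKYD by less than 2-fold. With 1 added to FPKM, the most PDR-high H2A gene was Hist2h2ac, at 13.3 in PDR and 6.54 in SKYD, a difference of 0.93 (95% CI 0.58 to 1.28). Its FPKM ratio was 2.04-fold, while the difference with 1 added to each FPKM stayed under the threshold. By FPKM ratio Hist1h2af was further apart, at 2.74-fold from 18 reads in PDR and 7 in SKYD. Hist1h2aa, an H2A gene of testis, had 0 reads in both.

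Hist3h2ba (ENSMUSG00000056895, chr11:58948920-58949533), an H2B gene, had the largest difference of all tested members. Its FPKM was 1.66 in PDR and 14.7 in SKYD, from 24 and 226 reads, which is 8.85-fold. The difference was -2.56 (95% CI -2.97 to -2.14). Of its 100-base stretches, 4.85% are shared with another gene. The neighbouring Hist3h2a (ENSMUSG00000078851, chr11:58954685-58956830) had an FPKM of 1.19 and 3.56, from 60 and 191 reads, and a difference of -1.06 (95% CI -1.31 to -0.79). The interval of Hist3h2a reaches inside the threshold. Trim17, which overlaps Hist3h2a on the same strand, had 9 reads in PDR and 2 in SKYD. The other H2B genes were closer. Hist1h2bc (ENSMUSG00000018102), the most abundant, had an FPKM of 38.6 and 51.2, a difference of -0.40 (95% CI -0.51 to -0.29). Hist1h2bj had 5.89 and 10.5, a difference of -0.73 (95% CI -1.13 to -0.34). Hist1h2bn was the most PDR-high at 1.68 and 1.26, from 15 and 12 reads, and its interval of -0.46 to 0.92 included 0. Hist1h2ba, the H2B of testis, had 0 reads in both.

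In H3, the 3 most abundant genes were all higher in SKYD. Hist1h3i (ENSMUSG00000101972), with 68.6% of its stretches shared, had an FPKM of 23.1 in PDR and 38.8 in SKYD, a difference of -0.73 (95% CI -0.96 to -0.49). Hist1h3e (ENSMUSG00000069273, chr13:23561534-23562369) had 1.43 and 7.27, from 28 and 152 reads, which is 5.10-fold. Its difference of -1.77 (95% CI -2.14 to -1.37) was past 2-fold over the whole interval, although 42.9% of its stretches are shared. Hist1h3a had 1.67 and 3.90, a difference of -0.87 (95% CI -1.38 to -0.34). Hist1h3g went the other way, at 3.53 in PDR and 1.96 in SKYD, a difference of 0.61 (95% CI 0.09 to 1.13).

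Hist1h4d (ENSMUSG00000061482, chr13:23581598-23582735), the leading H4 gene, shares no 100-base stretch with another gene. It had 1551 reads in PDR and 2602 in SKYD, an FPKM of 58.0 and 91.5, and a difference of -0.65 (95% CI -0.74 to -0.56). The leading H2A genes, which do share stretches, were also higher in SKYD. Whether shared reads bear on these differences was not tested. Hist1h4i had 19.5 and 21.8, and its interval of -0.36 to 0.05 included 0. Hist1h4m had 4.98 and 6.77, with an interval of -0.85 to 0.10. With 1 added to FPKM, Hist1h4h was the most SKYD-high of H4, at 2.90 and 5.53, a difference of -0.74 (95% CI -1.24 to -0.24). By FPKM ratio Hist1h4k was further apart, at 2.11-fold from 8 and 18 reads, against 1.91-fold for Hist1h4h. Hist2h4 (ENSMUSG00000091405), which also shares no stretch, went the other way with 115 reads in PDR and 42 in SKYD. Its difference was 0.98 (95% CI 0.67 to 1.27), just under the threshold, and its FPKM ratio was 2.91-fold.

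By position the members fall into 5 stretches with gaps of at least 200 kb. The Hist1 cluster on chromosome 13 holds 54 members, with a summed FPKM of 1443 in PDR and 1882 in SKYD. It splits into 23 genes at chr13:21715763-22043676, with sums of 1174 and 1540, and 31 genes at chr13:23531050-23934851, with sums of 268 and 342. The 2 sums were higher in SKYD by 1.31-fold and 1.28-fold. Without the most abundant gene of each, their log2 ratios of summed FPKM were -0.28 and -0.43. By gene, the first stretch had a median of -0.33, with 14 of 17 tested higher in SKYD. The second had a median of -0.12, with 13 of 23 higher in SKYD. The 10 genes of Hist2 at chr3:96219865-96270132 went the other way, with sums of 17.5 in PDR and 9.97 in SKYD, and a log2 ratio of summed reads of 0.46 (95% CI 0.23 to 0.70). Hist2h2ac gave 76.5% of the PDR sum. Without it the sums were 4.11 and 3.43, and the log2 ratio of summed FPKM fell from 0.81 to 0.26. Within Hist2, 6 genes were at 0 in both libraries, and Hist2h2ac and Hist2h4 were higher in PDR. Hist2h2be was higher in SKYD, with an FPKM of 1.11 and 1.97 and a difference of -0.50 (95% CI -0.74 to -0.24). Hist2h3c2 had 0 reads in PDR and 11 in SKYD, which is 3.45-fold lower in PDR against a floor of 3 reads. That fold leaves out the counting error of the 11 reads. The upper limit of its exact interval for the log2 FPKM ratio, PDR over SKYD, was -1.24. The 2 genes of Hist3 at chr11:58948920-58956830 had sums of 2.85 and 18.3, the widest ratio of any cluster at 6.41-fold. Hist4h4 on chromosome 6, the only gene of Hist4, had an FPKM of 1.04 and 0.950, just under the filter on mean FPKM.

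Genes of H2A and H2B often start head to head. There were 12 such pairs with less than 1000 bases between the genes, and the H2A gene had the higher mean FPKM in 8 of the 11 pairs with any reads. The levels within a pair could lie far apart. Hist1h2ao had an FPKM of 952 and 1270, while Hist1h2bq, whose gene starts 267 bases away, had 7 reads in PDR and 9 in SKYD. Hist1h2bq is one of the near-copies, with 94.8% of its stretches shared. Hist1h2ac and Hist1h2bc, 250 bases apart, had the opposite order, at 1.11 and 38.6 in PDR. Hist1h2ag and Hist1h2bj were closer in level, at 15.1 and 5.89 in PDR and 18.6 and 10.5 in SKYD. Of the 6 pairs with both genes tested, 2 had the same sign in both genes. Among the pairs with opposite signs, only in Hist2h2ac and Hist2h2be, at 0.93 and -0.50, did the intervals of both genes exclude 0.

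**Figure D4:**
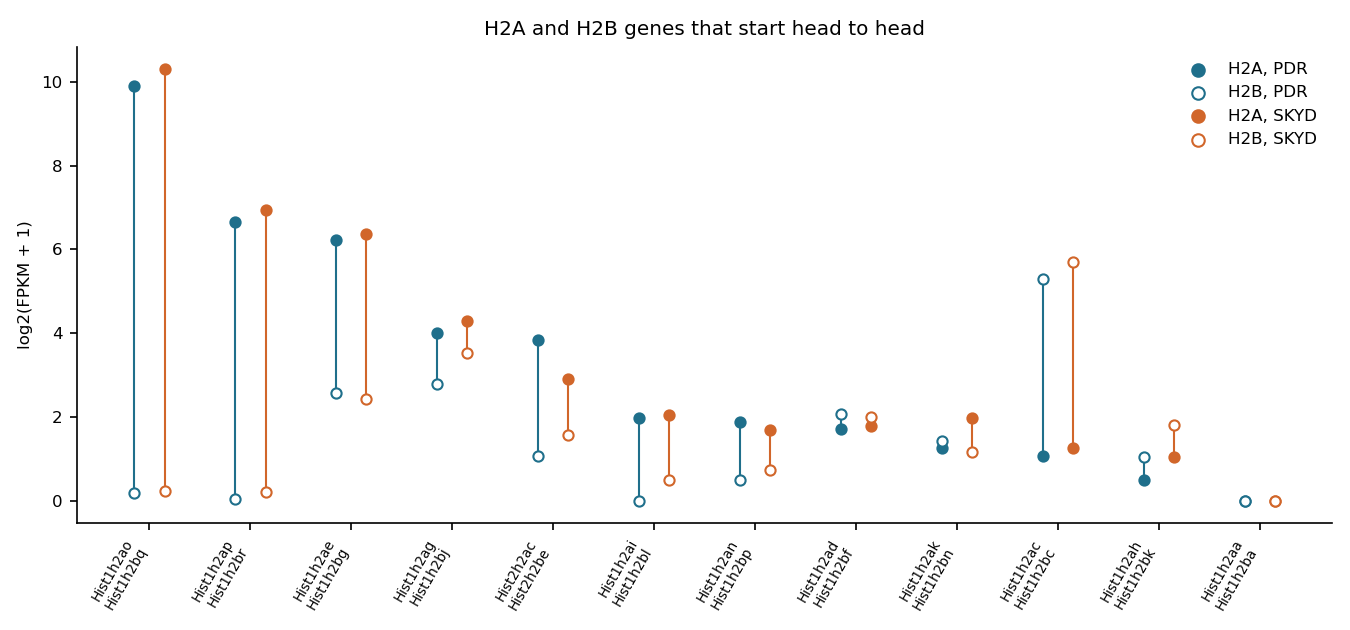
Level as log2(FPKM + 1) of the 12 pairs of H2A genes (filled circles) and H2B genes (open circles) that start head to head, in the PDR and SKYD libraries, 1 library each. Hist1h2ao stood at FPKM 952 in PDR while its partner Hist1h2bq had 7 reads.

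The members were also grouped by the length of the annotated gene past the stem-loop. The 17 tested members whose gene ends within 100 bases of the stem-loop had a median difference of -0.32, with 13 higher in SKYD and none past 2-fold. The 14 tested members whose gene runs on had a median of -0.17, with 9 higher in SKYD, and all 3 genes past 2-fold were among them. These are Hist3h2ba, Hist1h3e and Hist3h2a, with 169, 369 and 1643 bases after the stem-loop. With 0.1 in place of 1 added to FPKM this contrast was gone: Hist1h2bk, Hist1h2bm and Hist1h3a, which have 30, 46 and 37 bases after the stem-loop, also passed towards SKYD, while Hist2h2ac with 57 and Hist2h4 with 1257 passed towards PDR, so each group had 3 towards SKYD and 1 towards PDR. This grouping was made after the values were seen, and whether the reads lie before or after the stem-loop was not tested, since the table holds sums over genes.

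Genes that work beside the histones were compared on the same scale, by lists. The list of replication-independent variants, histones that are also made outside S phase, had 8 of 9 tested genes higher in SKYD. Its median was -0.25, close to that of the members. With no filter on FPKM the medians lay further apart, at -0.064 for the variants and -0.14 for the members. One of the variants passed 2-fold, H2afv, a gene of H2A.Z, with 2569 reads in PDR and 6739 in SKYD and a difference of -1.29. The other H2A.Z gene, H2afz, had an FPKM of 738 and 781, a difference of -0.08. The H3.3 genes H3f3a and H3f3b had an FPKM of 358 and 393, and 302 and 450. H2afx, the gene of the DNA damage variant H2A.X, was the only one higher in PDR, at 43.9 and 40.1.

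Factors that transcribe and process histone mRNA, of which 24 of 25 listed genes are in the table, showed no shared direction. Of 19 tested, 8 were higher in PDR and 11 in SKYD, none past 2-fold, with a median of -0.04. The 3 most abundant were Snrpe, Snrpb and Snrpg, subunits of small nuclear RNPs, at 162 and 217, 160 and 191, and 123 and 143. Ncbp1, of the cap-binding complex, had the largest difference towards PDR, 0.62, and Snrpd3 the largest towards SKYD, -0.90. Slbp, which binds the stem-loop, was higher in PDR, with an FPKM of 32.8 and 22.6 and a difference of 0.52; it was named after its value was seen.

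DNA replication genes went the opposite way to the core histones. Of 46 tested, 44 had the higher value in PDR and 2 in SKYD. The median was 0.58, and 4 passed 2-fold, all higher in PDR. Over all tested genes, 50.4% had the higher value in SKYD and 7.38% were past 2-fold towards PDR. The 4 of 46 past 2-fold were thus near the background. Ccne1, the cyclin of S phase entry, had the largest difference, with an FPKM of 7.72 in PDR and 2.74 in SKYD. The largest towards SKYD was Rpa3, of the single-strand binding complex, at 62.3 and 92.5, followed by Pcna, the polymerase clamp, at 127 and 139. Rfc4, of the clamp loader, had 97.1 and 55.9. Histone chaperones leaned the same way, as 17 of 21 tested had the higher value in PDR and the median was 0.32. Ssrp1, of the FACT complex, was the only chaperone past 2-fold, at 28.2 and 13.4, while Supt16, also of FACT, was higher in SKYD at 2.90 and 3.84. Npm1, Hat1 and Rbbp7 were higher in PDR by 0.47, 0.84 and 0.61, and Ubn1, of the HIRA complex, was the most SKYD-high at -0.47. For mitosis, 22 of 29 tested genes had the higher value in PDR, and the median was 0.24. Smc4, of condensin, had the largest difference, -1.52, with an FPKM of 8.32 and 25.7, and Ccnb1 was the most PDR-high at 54.4 and 23.7. Ccnb2 and Ube2c, also among the 3 most abundant, differed by -0.13 and 0.04. The medians of the histone and the replication genes thus had opposite signs in these libraries, also under TPM and both centrings.

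**Figure D5:**
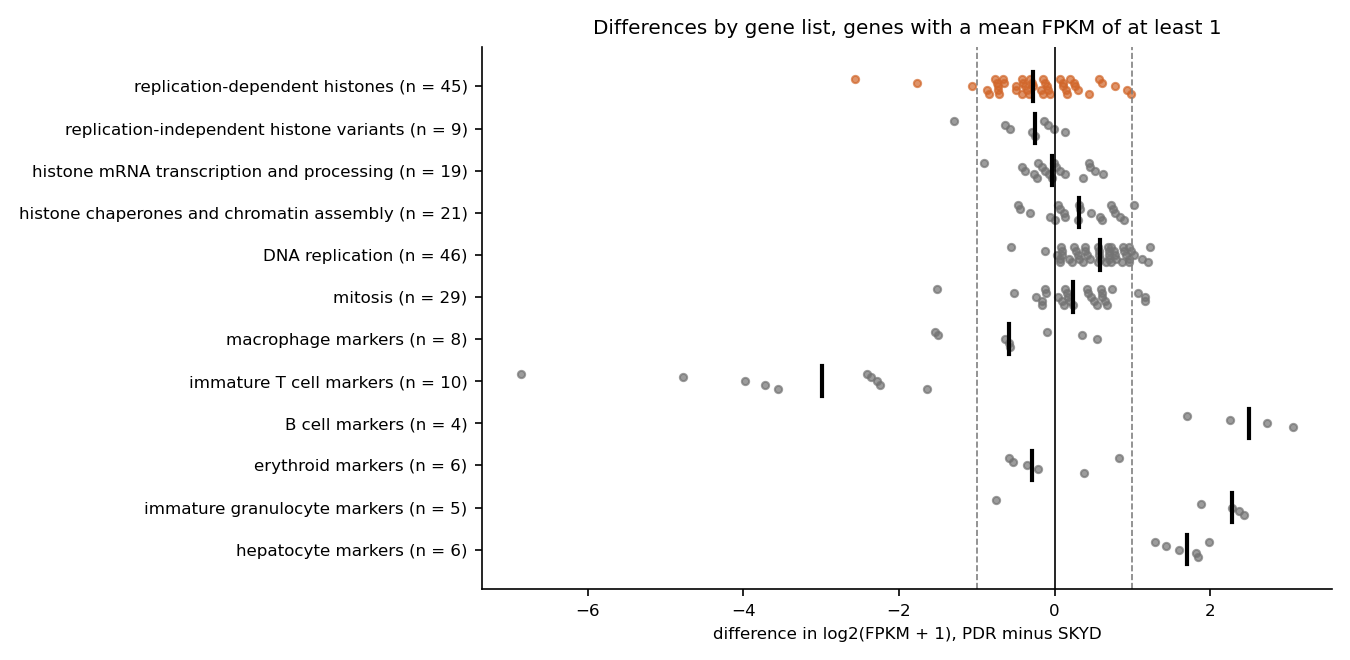
Difference in log2(FPKM + 1), PDR minus SKYD, of the tested genes of each list, with a black bar at the median and dashed lines at 2-fold. The median was -0.28 for the replication-dependent histones, 0.58 for DNA replication and -2.98 for immature T cell markers.

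Markers were also compared for macrophages, the type sorted by F4/80 and CD11b, and for cell types other than the one sorted for. Whether cells of other types passed the sort was not tested. The erythroid median of -0.29 was close to that of the histones, and the medians of the other marker lists lay further from 0. Macrophage markers had a summed FPKM of 803 in PDR and 1530 in SKYD, with a median of -0.58 and 6 of 8 higher in SKYD; none was at 0. The most abundant was C1qa, at 325 and 921, then Cd68, at 259 and 388, and Adgre1, the gene of F4/80, at 87.3 and 93.3. Fcgr1 was the most PDR-high at 0.54. All 10 immature T cell markers were past 2-fold higher in SKYD, with summed FPKM of 98.6 and 1157. Cd8b1 led them at 39.7 and 535, followed by Cd3d at 42.3 and 221. Dntt, an enzyme of developing lymphocytes, had 0.780 and 206, and Themis, with the smallest difference, had 0.900 and 4.94. Rag1, Rag2 and Ptcra were at 0 in PDR.

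B cell markers leaned towards PDR, with summed FPKM of 1663 and 382. All 4 tested were past 2-fold, and the most abundant were Cd79b at 802 and 168, Cd79a at 582 and 178, and Ms4a1 at 196 and 22.5. With no filter on FPKM, 5 were higher in PDR and 2 in SKYD. The 2 were Vpreb1, with 2 reads in PDR and 24 in SKYD, and Igll1, with 0 and 15. Erythroid markers summed to 20988 and 28335, none past 2-fold. Hba-a1 led at 10807 and 15651, then Hbb-bs and Hbb-bt, and Hba-a2 was the most SKYD-high at -0.59. Klf1, Ermap and Epor were at 0 in PDR, and Ermap also in SKYD. Immature granulocyte markers summed to 116 and 93.7, with 4 of 5 past 2-fold higher in PDR. Prtn3, the most abundant, was higher in SKYD at 49.2 and 83.4, while Elane had 34.1 and 5.81, Ctsg 16.4 and 2.60, and Ms4a3 10.5 and 1.13. All 6 hepatocyte markers were past 2-fold higher in PDR, with sums of 2071 and 710, led by Apoa2 at 793 and 294, Fabp1 at 410 and 167 and Apoa1 at 402 and 111. Serpina1a had the largest difference among them, 1.99. The part of these cell types in the histone differences was not tested.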

How the data were processed

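RNA of sorted aortic macrophages was sequenced in 1 library for PDR and 1 for SKYD, with the cells of 5 mice pooled in each. The authors aligned reads with TopHat2 2.0.9 and Bowtie2 2.0.6, counted them per gene with HTSeq 0.6.1 and deposited FPKM; versions are from the submitters' processing notes. Those notes name mm9, whereas gene positions in the table are those of GRCm38: all 67 members, and 98.3% of 54409 shared genes, have the start and end of GENCODE M21, so positions are given on GRCm38.

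FPKM times gene length was divided by the step of 1 read to give reads, and 100% of the 17738 (PDR) and 20499 (SKYD) genes above 0 came out whole, within 0.01. The comparison was made on log2(FPKM + 1) for genes whose mean FPKM reached 1, with a threshold of 2-fold and 95% Clopper-Pearson intervals. No p-value was computed. A count of 0 allows up to 3 reads. Each summed level is the ratio of summed FPKM, and its interval belongs to summed reads. Shared stretches, stem-loops and overlaps came from GENCODE M21 and promoters from RefSeq. Genes that overlap a member, on either strand, counted among those that share a stretch with it.

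Members and lists were chosen with earlier results of these data known. Genes were named by rule: for each histone type the 3 with the highest mean FPKM and the one with the largest difference each way; members of Hist2, Hist3 and Hist4 above 0; Hist1h1t, Hist1h2aa and Hist1h2ba; and for each list the 3 with the highest mean FPKM and the largest difference each way. Other genes named, such as Hist1h1d, Hist1h2bq, Hist1h4j and Slbp, were chosen after their values were seen. Some genes that the rule takes are not reported here. Zcchc6 was not matched by name. Alternatives were pseudocounts of 0.1 and 0.01, no filter, a mean FPKM of at least 5, TPM, centring on the median or a 30% trimmed mean, a 4-fold threshold, the nearer end of the interval, sums without the leading gene, shares of reads, and members with few shared stretches. The recovery of reads, the 2-fold calls and the intervals were tested on simulated reads with counting error only, without a spread between mice. The searches for stem-loops, shared stretches and promoter motifs were not tested in this way. Software was scipy 1.17.1, pandas 2.3.3 and numpy 2.4.6 under Python 3.11.15, and figures were drawn with matplotlib 3.10.9.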

Additional observations from a re-analysis of the deposited data

Results flagged for a closer look

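Reads also fell on histone pseudogenes, which the rule for members leaves out. Hist1h2aj had 6 reads in PDR and 10 in SKYD, and Hist3h2bb-ps had 0 in PDR and 6 in SKYD, each above the 3 reads that a count of 0 allows where reads were found. Hist3h2bb-ps lies between Hist3h2ba and Hist3h2a on chromosome 11. Whether these reads come from the pseudogenes or from nearly identical genes was not tested.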

How the results depend on the processing

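No paired analysis was possible because each group had 1 library. Counts past 2-fold were 0 of 45 members higher in PDR and 3 higher in SKYD. They became 3 and 8 with a pseudocount of 0.1, against 10.2% and 9.71% of all tested genes, and 4 and 8 with 0.01, against 10.5% and 10.1%, which lowers the weight of the added 1 in genes of low FPKM. Under TPM 1 of 50 members, Hist2h4, passed towards PDR and 3 towards SKYD, against 8.74% and 7.91% of 11981 genes. The count towards SKYD was 1 of 17 with a mean FPKM of at least 5, 1 of 45 with a 4-fold threshold and 2 of 45 with the nearer end of the interval, against 6.48%, 2.08% and 4.79% of all tested genes, and 0 without members that share any stretch, which leaves 5 tested. Some alternatives were chosen after seeing the data: without members that share over 25% of their stretches 1 of 16 passed towards SKYD, and by ratio of reads, for the 56 members with at least 10 reads, 5 passed towards PDR and 12 towards SKYD, against 14.9% and 18.1% of the 16703 genes with at least 10 reads. The median of the members stayed below 0 under all its alternatives, between -0.38 and -0.14. From -0.28 it moved to -0.15 for the 5 tested members that share no stretch. For the 16 tested members left without those that share over 25% it was -0.17. The summed level, -0.38, was -0.33 without Hist1h2ao, -0.30 without members that share a stretch, -0.31 without those that share over 25%, and -0.33 as a share of reads. H1 turned from 0.01 to -0.087 as a share of reads and to -0.28 without Hist1h1b; the cause was not tested. As a share of reads, H2A was -0.33, H2B -0.47, Hist1 -0.33, Hist2 0.51 and Hist3 -2.17. Without the leading gene, H2A was -0.20, H2B -0.83, H4 -0.20, Hist1 -0.32, Hist2 0.26 and Hist3 -1.58. With no filter, list medians were -0.064 for histone variants, 0.13 for chaperones, 1.70 for B cell and -0.24 for erythroid markers. With a pseudocount of 0.1 they were -3.73 for immature T cell and 2.62 for immature granulocyte markers. Of 360 values for named genes, 320 stayed within the counting interval, 40 moved outside it, and none past 2-fold changed sign. For the other moves, too, the cause was not tested. Depth limits the 46 members with under 100 reads in each library.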
